A study of Homo sapiens with 6 samples.

Results

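The small nucleolar and Cajal body RNAs were taken as every gene of the table whose symbol starts with SNORD, SNORA or SCARNA, which gave 127 of 23013 genes. By symbol, 55 were C/D box RNAs (SNORD), 51 were H/ACA box RNAs (SNORA) and 21 were Cajal body RNAs (SCARNA). They were measured in nuclei of HCT116, an established human colorectal cancer cell line, grown untreated and not synchronised. RNA that came down natively, without crosslinking, with an antibody against ORC1 (ORC1 IP, 3 libraries) was compared with nuclear RNA taken without antibody (input, 3 libraries). ORC1 is the largest subunit of the origin recognition complex, which loads the replicative helicase on DNA, and the comparison asks which nuclear RNAs are over- or under-represented with it. Each input and ORC1 IP carries the number of its RIP replicate, 1, 2 or 3. No library from a control antibody was analysed here, and p-values measure the spread between these libraries, since nothing in the labels says that the replicates came from separate cultures.

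Small nucleolar RNAs (snoRNAs) are stable, non-polyadenylated RNAs of the nucleolus that guide chemical modification of other RNAs by base pairing. C/D box snoRNAs direct 2′-O-methylation through the methyltransferase fibrillarin, and H/ACA box snoRNAs direct pseudouridylation through dyskerin. A few, such as U3, U14 and U17, are needed for cleavage of the ribosomal RNA precursor. Small Cajal body RNAs carry the same boxes but collect in Cajal bodies, where they guide modification of spliceosomal RNAs. Most human snoRNAs are cut out of the introns of host genes.

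The RNAs the results turn on are shown first, to make their boxes and their different lengths visible. Sequences and positions are those of the GENCODE v44 models on GRCh38, each read 5′ to 3′. Capitals mark the C box (TGATGA) and the D box (CTGA) in SNORD RNAs and the ACA box in the others. SNORD17 (chr20:17962710-17962946, minus strand, in an intron of SNX5) and SNORD14A (chr11:17074654-17074744, minus strand, in an intron of RPS13) are a long and a short C/D box RNA.
SNORD17: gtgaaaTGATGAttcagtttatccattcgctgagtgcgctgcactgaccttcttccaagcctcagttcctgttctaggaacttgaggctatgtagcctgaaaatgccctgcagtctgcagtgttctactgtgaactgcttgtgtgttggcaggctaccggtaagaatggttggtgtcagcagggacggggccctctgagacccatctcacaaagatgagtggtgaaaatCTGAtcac
SNORD14A: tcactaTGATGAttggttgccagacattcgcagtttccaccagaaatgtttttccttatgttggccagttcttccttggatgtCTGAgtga
Among H/ACA box RNAs, SNORA53 (chr12:98599635-98599883, plus strand, overlapping an exon of a SLC25A3 transcript) had the smallest adjusted p of those tested, SNORA73B (chr1:28508559-28508762, plus strand, in an intron of SNHG3) is a U17 RNA, and SNORA66 (chr1:92840719-92840851, plus strand, in an intron of RPL5) was the exception in direction.
SNORA53: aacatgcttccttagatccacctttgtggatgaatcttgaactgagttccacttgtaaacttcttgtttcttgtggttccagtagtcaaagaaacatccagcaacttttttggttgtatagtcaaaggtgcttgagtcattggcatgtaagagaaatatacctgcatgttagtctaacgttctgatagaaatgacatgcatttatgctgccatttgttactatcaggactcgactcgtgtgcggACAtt
SNORA73B: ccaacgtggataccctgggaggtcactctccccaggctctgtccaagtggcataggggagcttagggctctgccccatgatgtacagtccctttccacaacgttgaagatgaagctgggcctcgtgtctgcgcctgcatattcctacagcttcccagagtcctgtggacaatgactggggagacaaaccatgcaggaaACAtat
SNORA66: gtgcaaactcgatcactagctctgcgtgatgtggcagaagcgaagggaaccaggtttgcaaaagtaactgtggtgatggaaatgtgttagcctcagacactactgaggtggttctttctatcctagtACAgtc
SCARNA13 (chr14:95533355-95533629, minus strand, overlapping an exon of a SNHG10 transcript) stands for the Cajal body RNAs.
SCARNA13: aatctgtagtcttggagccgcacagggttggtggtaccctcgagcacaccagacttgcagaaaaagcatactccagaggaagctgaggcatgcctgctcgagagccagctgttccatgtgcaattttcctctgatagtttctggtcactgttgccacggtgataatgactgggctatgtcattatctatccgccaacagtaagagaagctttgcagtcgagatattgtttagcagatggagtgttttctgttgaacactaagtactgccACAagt

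The boxes were searched on the RNA strand only. A C box in the first 25 bases together with a D box in the last 20 was found in 34 of 47 SNORD models (72.3%), and ACA in the last 8 bases in 47 of 49 SNORA models (95.9%). Of 17 SCARNA models, 5 held both C and D boxes and 12 held the ACA box. Among 9679 other annotated transcripts of at most 300 bases, 0.0723% held both C and D boxes and 8.31% held ACA at the end. SNORD and SNORA models thus differed in their boxes, and SCARNA models carried those of either class.

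These RNAs made up a small part of every library. Their share of the reads on genes was 0.226%, 0.167% and 0.0800% in the inputs and 0.0205%, 0.0898% and 0.00909% in the ORC1 IPs. The mean was 0.158% ± 0.0734 in the inputs and 0.0398% ± 0.0437 in the ORC1 IPs (SD, n = 3), and ORC1 IP 2 lay above input 3, so the groups overlapped. Total reads on genes were 13703033 to 17248924 in the inputs and 25134156 to 36008733 in the ORC1 IPs. Within the inputs the shares were uneven too, with the SCARNA share at 0.110% in input 1, 0.0543% in input 2 and 0.0276% in input 3. SNORD3A, SNORA73B, SCARNA10 and SCARNA2 together held 45.0% to 63.7% of the reads on all 127 RNAs, with the lowest values in ORC1 IPs 1 and 2. All 5 epithelial marker genes (EPCAM, CDH1, KRT8, KRT18, KRT19) were tested, with input means from 1085 to 42650.1 normalised counts and no call in either direction. Of 6 markers of other cells, COL1A1 and ALB were in the table, at input means of 232 and 0.703.

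**Figure D1:**
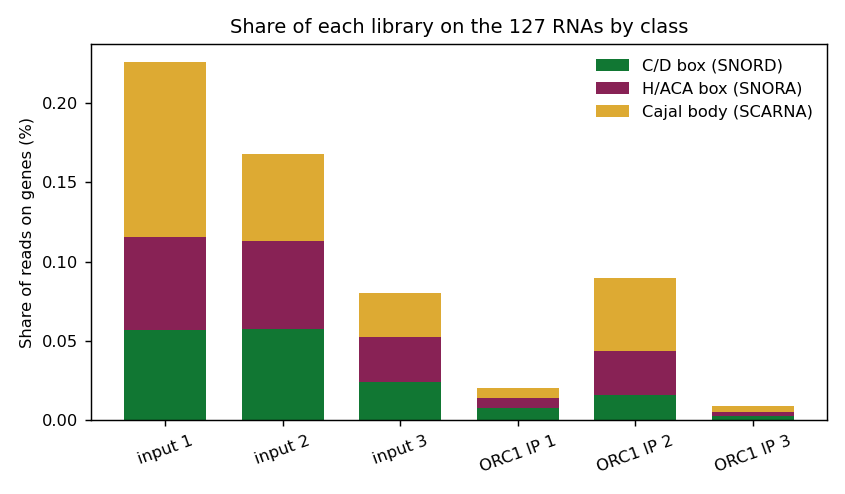
Share of each library's reads on genes (%, vertical axis) that fell on the 127 RNAs, stacked by class, for the 3 inputs and 3 ORC1 IPs. ORC1 IP 1 and ORC1 IP 3 sit at 0.0205% and 0.00909%, below every input, and ORC1 IP 2 at 0.0898% sits just above input 3 at 0.0800%.

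Normalised counts are read counts divided by 1 size factor per library. Genes with a mean of at least 10 over the 6 libraries were tested, which left 66 of the 127 RNAs, namely 25 SNORD, 30 SNORA and 11 SCARNA. In ORC1 IPs, 12 of the 66 were lower at an adjusted p under 0.05 (limma on log2(normalised count + 1), Benjamini-Hochberg over 16513 genes), and none was higher. Fold changes compare 3 ORC1 IPs with 3 inputs throughout. Over all tested genes 1.42% were called lower and 2.28% higher. The 12 were SNORD3A, SNORD3B-2, SNORD3D and SNORD17 among C/D box RNAs, SNORA73B, SNORA53, SNORA74A, SNORA23 and SNORA80B among H/ACA box RNAs, and SCARNA7, SCARNA13 and SCARNA17. At an unadjusted p under 0.05 limma had 34 lower and 0 higher, and edgeR and DESeq2 also had 0 higher at that level. edgeR called 10 of the 66 lower (1.31% of all genes) and DESeq2 23 (4.35%).

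The fold change was negative for 65 of the 66, with a median log2 fold change of -1.66 against 0.014 over all tested genes. By class the median was -1.87 for SNORD, -1.50 for SNORA and -2.01 for SCARNA. All 3 ORC1 IPs lay below all 3 inputs for 28 of the 66, where 13.5% of all tested genes did so, and all 3 lay above for none, against 12.7%. The values are relative to each library, so less of these RNAs and more of others with ORC1 cannot be told apart. Low counts limit many of these values: 37 of the 66 had under 10 reads in at least 1 library. Of the 48 with a mean of at least 10 in each group, 9 were called lower. In 18 of the 48 all ORC1 IPs lay below all inputs. The called RNAs outside the 48 were SNORD3B-2, SNORD3D and SNORA80B, whose ORC1 IP means were under 10, so they were tested through their inputs. The filter on each group was not applied to all tested genes, of which 1.42% were called lower and 13.5% had all ORC1 IPs below all inputs.

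The size of the difference depended on the library. Measured from the mean of the inputs on the log2 scale, the median of the 66 was -0.97, -0.87 and -3.24 in ORC1 IPs 1, 2 and 3, and -0.18, 0.50 and -0.57 in inputs 1, 2 and 3. ORC1 IP 3 was thus the lowest library by a wide margin. Leaving 1 library out of the limma fit changed the number called lower, among these RNAs and over all genes. Without ORC1 IP 3 a single RNA, SNORA53, was still called lower, where 0.139% of all genes were. In that fit the median log2 fold change of the 66 was -0.96, against -1.66 with all libraries, and 5 of the 66 were positive. Some of the called RNAs kept log2 fold changes of similar size, such as -2.89 for SNORD3A, -3.07 for SNORD17 and -2.59 for SCARNA7 (limma, adjusted p = 0.0557, 0.056 and 0.0518). Without ORC1 IP 2 the calls were 33, against 6.38% of all genes, and without ORC1 IP 1 they were 9, against 0.721%. Without inputs 1, 2 or 3 the calls were 6, 3 and 5, against 0.999%, 0.236% and 0.139% of all genes.

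**Figure D2:**
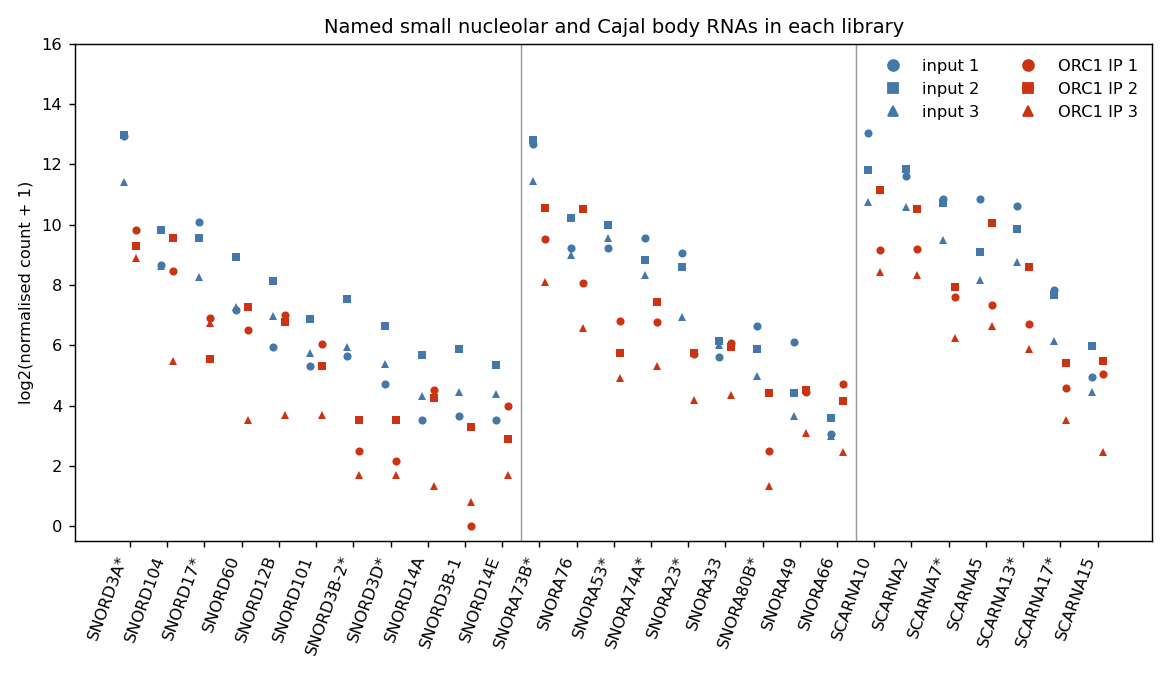
Level of the 27 named RNAs as log2(normalised count + 1) in each library, ordered by class and mean level, with inputs in blue, ORC1 IPs in red, 1 symbol shape per replicate number, and a star for those called lower by limma at an adjusted p under 0.05. For all 12 starred RNAs the red points lie below the blue ones, and for SNORA66 ORC1 IPs 1 and 2 lie above the inputs.

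Among the C/D box RNAs, U3 held most of the reads in the inputs. U3 is the most abundant C/D box snoRNA and is required for cleavage of the pre-rRNA, and it is made from its own promoters rather than from introns. SNORD3A, a U3 gene (chr17:19188016-19188714, plus strand), was at 7938, 8058 and 2749 in the inputs and 907, 631 and 475 in the ORC1 IPs. Every ORC1 IP was below every input, and the level was 8.64-fold lower (log2 fold change -3.11 ± 0.48 SE, adjusted p = 0.00887 in limma). SNORD3B-2 was at 48.5, 184 and 60.8 in the inputs and 4.61, 10.5 and 2.24 in the ORC1 IPs, again with no overlap (log2 fold change -3.81 ± 0.67 SE, adjusted p = 0.0137 in limma). SNORD3D was 8.76-fold lower, at 55.2 ± 38.98 in the inputs and 5.38 ± 4.43 in the ORC1 IPs (SD, n = 3), with no overlap (limma, adjusted p = 0.0323). SNORD3B-1 was at 11.6, 58.3 and 21.1 in the inputs and 0, 8.71 and 0.745 in the ORC1 IPs and missed the threshold (log2 fold change -3.31 ± 0.90 SE, adjusted p = 0.0603 in limma), which it passed with the replicate number as a block (limma, adjusted p = 0.0198). The U3 rows share 81.8% to 96.9% of their 50-base stretches with other places in the genome, so how reads were divided among them is uncertain. Summed to 1 feature, the 5 U3 rows were at 8034, 8411 and 2875 in the inputs and 917, 661 and 481 in the ORC1 IPs (log2 fold change -3.13, limma adjusted p = 0.00837).

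SNORD17, a long C/D box snoRNA, was at 1078, 747 and 305 in the inputs and 119.7, 45.3 and 106 in the ORC1 IPs. Its ORC1 IPs did not overlap the inputs, and it was 7.46-fold lower (log2 fold change -2.90 ± 0.52 SE, adjusted p = 0.0148 in limma). The short C/D box RNAs behaved differently from library to library. SNORD104, the second most abundant SNORD row, was at 408, 909 and 393 in the inputs and 350.0, 762 and 43.97 in the ORC1 IPs, with ORC1 IP 2 among the inputs, ORC1 IP 1 just below them and ORC1 IP 3 far below (log2 fold change -1.20 ± 0.79 SE, adjusted p = 0.411 in limma). SNORD12B, which lies in the non-coding host ZFAS1, was at 60.1, 279 and 124 in the inputs and 127, 109 and 11.9 in the ORC1 IPs, with ORC1 IPs 1 and 2 among the inputs and ORC1 IP 3 below them. SNORD60 (142, 484 and 153 in the inputs and 89.8, 154 and 10.4 in the ORC1 IPs) and SNORD101 (39.04, 115 and 52.7 in the inputs and 65.6, 38.3 and 11.9 in the ORC1 IPs) also had ORC1 IP 3 as their lowest library. Neither was called, with log2 fold changes of -2.02 ± 0.82 and -0.96 ± 0.64 (SE, n = 3 against 3).

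Among the snoRNAs with a known part in pre-rRNA cleavage, 8 rows were in the table, 7 were tested and 4 were called lower. They were SNORD3A, SNORD3B-2, SNORD3D and SNORA73B, where 1.42% of all tested genes were called lower. All but SNORA73B are U3 rows that share sequence, so this count does not stand for separate RNAs. U14, which takes part in 18S rRNA maturation, was represented by SNORD14A at 10.6, 50.4 and 18.7 in the inputs and 21.9, 17.998 and 1.49 in the ORC1 IPs and by SNORD14E at 10.6, 39.4 and 19.9 in the inputs and 14.97, 6.39 and 2.24 in the ORC1 IPs. Both overlapped between groups, and neither was called (limma, adjusted p = 0.478 and 0.243). Of the RNAs with their own promoters, 7 rows were in the table, 6 were tested and 4 were called lower, namely SCARNA17 and the same U3 rows. The imprinted SNORD clusters had 0 rows in the table.

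Among the H/ACA box RNAs, SNORA73B was the most abundant. It is a copy of U17, an H/ACA box RNA that acts in 18S rRNA maturation. It was at 6555, 7141 and 2808 in the inputs and 736, 1507 and 276 in the ORC1 IPs, with no overlap, and was 7.54-fold lower (log2 fold change -2.91 ± 0.58 SE, adjusted p = 0.0232 in limma). Per kilobase of annotated RNA its mean normalised count in the inputs was 26967, above SCARNA10 at 14024 and SNORD3A at 8939, though the SNORD3A model is longer than the U3 RNA itself. SNORA53 was at 598, 1018 and 750.0 in the inputs and 111, 52.3 and 29.1 in the ORC1 IPs, and it was 13.7-fold lower (log2 fold change -3.78 ± 0.48 SE, adjusted p = 0.00406 in limma). Its lowest input was far above its highest ORC1 IP, and it stayed called in each fit that left out 1 library. SNORA23 was at 538, 389 and 123 in the inputs and 51.8, 52.3 and 17.1 in the ORC1 IPs (log2 fold change -2.999 ± 0.60 SE, adjusted p = 0.0235 in limma), and SNORA74A at 753, 454 and 322 in the inputs and 107, 172 and 38.8 in the ORC1 IPs (log2 fold change -2.41 ± 0.53 SE, adjusted p = 0.0323 in limma). Neither overlapped between groups. SNORA80B was at a lower level, 99.2, 58.3 and 30.4 in the inputs and 4.61, 20.3 and 1.49 in the ORC1 IPs, and was called as well (log2 fold change -3.10 ± 0.77 SE, adjusted p = 0.048 in limma).

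The H/ACA rows that were named for level or direction but not called all overlapped between groups. SNORA76 was at 594, 1193 and 514 in the inputs and 269, 1458 and 94.6 in the ORC1 IPs, with ORC1 IP 2 above every input (log2 fold change -1.09 ± 0.75 SE, adjusted p = 0.431 in limma). In GENCODE v44 this row is the whole non-coding host SNHG25, which holds the snoRNA, so its reads need not come from the snoRNA. SNORA33 was at 47.5, 69.3 and 63.2 in the inputs and 66.8, 60.4 and 19.4 in the ORC1 IPs, and its groups overlapped (log2 fold change -0.46 ± 0.54 SE, adjusted p = 0.674 in limma). SNORA49 was at 67.5, 20.5 and 11.7 in the inputs and 20.7, 22.1 and 7.45 in the ORC1 IPs, with ORC1 IPs 1 and 2 near inputs 2 and 3. SNORA66 was the only tested RNA with a positive fold change, at 7.39, 11.03 and 7.02 in the inputs and 25.3, 16.8 and 4.47 in the ORC1 IPs (log2 fold change 0.56 ± 0.70 SE, adjusted p = 0.693 in limma). Its groups overlapped, and its mean of 12.01 over the libraries was close to the minimum for testing.

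Among the Cajal body RNAs, SCARNA7 was at 1859, 1704 and 713 in the inputs and 192, 245 and 75.3 in the ORC1 IPs, an 8.54-fold difference with no overlap (log2 fold change -3.10 ± 0.50 SE, adjusted p = 0.0106 in limma). SCARNA13 was at 1574, 924 and 434 in the inputs and 102, 391 and 57.4 in the ORC1 IPs (log2 fold change -2.69 ± 0.64 SE, adjusted p = 0.0412 in limma), and SCARNA17 at 225, 200.2 and 70.2 in the inputs and 23.03, 41.2 and 10.4 in the ORC1 IPs (log2 fold change -2.71 ± 0.60 SE, adjusted p = 0.0323 in limma). Both were lower in every ORC1 IP than in every input. The 2 most abundant SCARNA rows, SCARNA10 and SCARNA2, were not called. SCARNA10 was at 8529, 3631 and 1724 in the inputs and 569, 2291 and 342 in the ORC1 IPs, with ORC1 IP 2 above input 3 (log2 fold change -2.30 ± 0.69 SE, adjusted p = 0.0799 in limma). SCARNA2 was at 3153, 3697 and 1526 in the inputs and 587, 1468 and 323 in the ORC1 IPs, without overlap but with a wide spread (log2 fold change -1.997 ± 0.54 SE, adjusted p = 0.0584 in limma). With the replicate number as a block both passed (limma, adjusted p = 0.0275 and 0.0177), and the block called 16 of the 66 lower in all (1.16% of all tested genes), the 12 among them.

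SCARNA5 was at 1856, 545 and 287 in the inputs and 161, 1061 and 97.6 in the ORC1 IPs, so that ORC1 IP 2 exceeded inputs 2 and 3 (log2 fold change -1.37 ± 0.81 SE, adjusted p = 0.353 in limma). SCARNA15, whose row is a non-coding gene of 4325 bases in GENCODE v44, was at 29.5, 61.5 and 21.1 in the inputs and 32.2, 43.5 and 4.47 in the ORC1 IPs, and its groups overlapped. By class, the SCARNA median was -2.53, -0.83 and -3.08 in ORC1 IPs 1, 2 and 3, the SNORD median -0.89, -0.98 and -3.56 and the SNORA median -0.86, -0.99 and -2.82, on the log2 scale from the mean of the inputs. In inputs 1, 2 and 3 the SCARNA median was 0.87, 0.091 and -0.98 and the SNORD median -0.65, 0.87 and -0.21, so the inputs also ranked differently by class.

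The fold changes also differed with annotated length. Among the 57 tested RNAs with a snoRNA or scaRNA model of at most 400 bases, the log2 fold change and length had a Spearman rho of -0.51, and fold change and GC content -0.059. The input level and fold change had a rho of -0.44, and input level and length 0.32. These points share the same 6 libraries, and the correlations describe these RNAs without a test. The inputs enter both the input level and the fold change, so the rho of -0.44 can be partly set by that. Against length, the difference from the inputs had a rho of -0.65 in ORC1 IP 1, -0.38 in ORC1 IP 2 and -0.076 in ORC1 IP 3.

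Over all tested genes, of any length, 1.42% were called lower. Of 15 tested RNAs of 60 to 100 bases, 0 were called, with a median log2 fold change of -1.31. Of 29 of 101 to 150 bases, 2 were called (median -1.57), and of 13 of 151 to 400 bases, 7 were called (median -2.62). The shortest were near the inputs in ORC1 IPs 1 and 2 and low in ORC1 IP 3, with medians of -0.42, -0.42 and -3.55 from the mean of the inputs. The longest were low in each, at -2.42, -1.32 and -3.59, and the middle bin was at -0.88, -0.94 and -2.74. The inputs differed by length as well, at -0.72, 0.92 and -0.20 for the shortest and 0.65, 0.25 and -0.88 for the longest in inputs 1, 2 and 3.

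**Figure D3:**
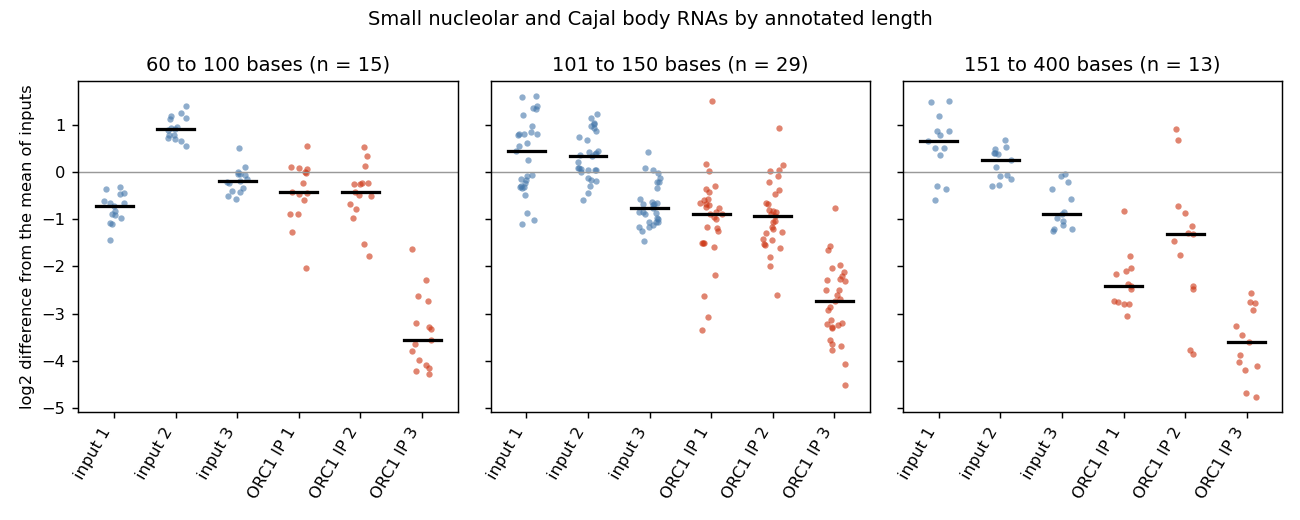
Difference of each library from the mean of the inputs, in log2 units, for tested RNAs with a snoRNA or scaRNA model, in 3 bins of annotated length; each point is 1 RNA and the bar is the median. In ORC1 IP 1 the median is -0.42 for the shortest bin and -2.42 for the longest, while ORC1 IP 3 is low in all 3.

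Other short genes were called lower too. Outside these families 183 tested genes had a longest annotated transcript of at most 300 bases. Of the 183, 41 were called lower and 1 higher, against 1.42% and 2.28% of all tested genes, with a median log2 fold change of -1.19. By annotated type 89 were processed pseudogenes, 31 snRNAs and 22 misc_RNAs, and the rest were of other types. The 31 snRNAs ranged from -4.14 (RNU1-85P) to -1.01 (RNU6-850P), so they were as low as many of the snoRNAs. In the 60 to 100 base bin other genes had a median of -0.29 (19 tested, 0 called lower), in the 101 to 150 base bin -1.71 (24 tested, 10 called lower), and in the 151 to 400 base bin -0.68 (338 tested, 43 called lower). The snoRNAs were below the other genes in the shortest and longest bins and not in the middle one, and these differences were not tested. The other genes of each bin mix types and were not split by type. Each library was also corrected for transcript length and GC content. With this, 4 of the 64 RNAs with a length matched by Ensembl ID were called lower, against 0.411% of all genes. They were SNORA53, SCARNA7, SNORD3B-2 and SNORD3A. The last 2 are U3 rows that share sequence, and SNORD3A was corrected at the length of a model longer than the U3 RNA. After the correction the median was -0.33, and 23 of the 64 were positive. By class the medians were 0.045 for SNORD, -0.20 for SNORA and -1.30 for SCARNA. The correction was fitted over all tested genes with a length, the snoRNAs and scaRNAs included. At 60 to 100 bases 15 of them were tested beside 19 other genes, and at 101 to 150 bases 29 beside 24. Part of their own difference can thus be removed by the fit, and how much was not tested.

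**Figure D4:**
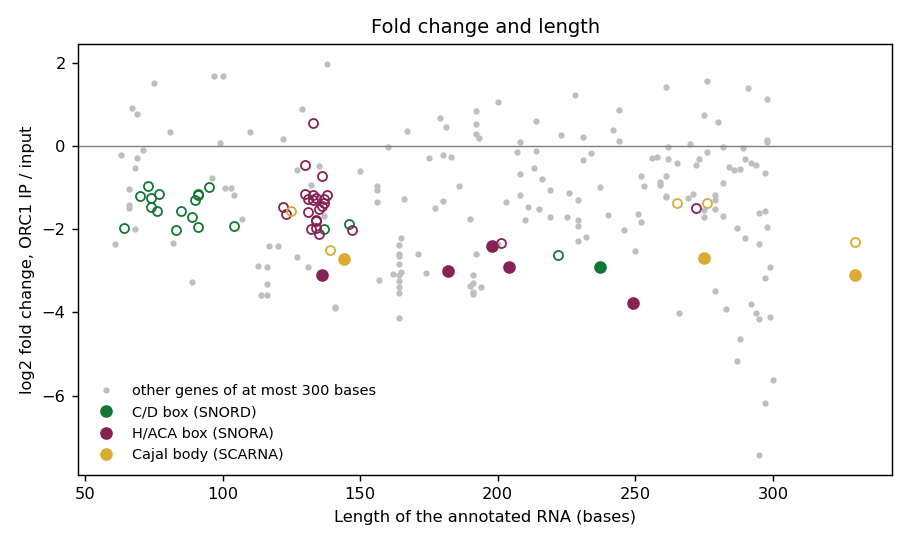
Log2 fold change of ORC1 IP over input against the length of the annotated RNA in bases, for tested snoRNAs and scaRNAs of up to 400 bases by class (filled: called lower by limma at an adjusted p under 0.05; open: not called) and for the 183 other short genes (grey). Below 101 bases no RNA of these families is filled, and 7 of the 13 above 150 bases are.

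Host genes gave a comparison at the same loci. In GENCODE v44, 113 of the 127 lay within 92 hosts on the same strand, 88 in introns and 25 overlapping an exon of some host transcript, and 10 had no host. The sources used here do not say how reads in both an RNA and a host exon were assigned. Hosts were protein-coding for 89 and non-coding for 22. The row SNORA76, which is SNHG25 in GENCODE v44, served as the host of SNORD104 and is itself among the 127. Both the RNA and its host were tested in 55 pairs with 46 hosts. There the median log2 fold change was -1.56 for the RNA and -0.086 for the host, and the RNA was below its host in 50 pairs. By type of host, the median of the difference was -1.82 for 38 pairs with protein-coding hosts and -0.94 for 16 with lncRNA hosts. Of the 46 hosts, 2 were called lower and 0 higher, against 1.42% and 2.28% of all tested genes. Across the 55 pairs, which share libraries and some hosts, the fold changes of RNA and host had a Spearman rho of 0.078.

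The distance was clear for single loci. SNORA23 was 7.99-fold lower while its host IPO7, an importin, was at means of 5092 in the inputs and 11068 in the ORC1 IPs (log2 fold change 1.001 ± 0.57, SE, n = 3 against 3). SNORD17 was 7.46-fold lower while its host SNX5, a sorting nexin, was at 2135 in the inputs and 3439 in the ORC1 IPs (log2 fold change 0.685 ± 0.38). Neither host was called. SNORA73B and its non-coding host SNHG3 were the exception among the called RNAs, with SNHG3 at 16429.6 in the inputs and 2568 in the ORC1 IPs and log2 fold changes of -2.91 for the snoRNA and -2.94 for the host (limma, host adjusted p = 0.0434). After correction for length and GC content the median difference between RNA and host was 0.054, so its direction turned under that correction. The correction was fitted with the snoRNAs and scaRNAs included, so it can remove part of their own difference.

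**Figure D5:**
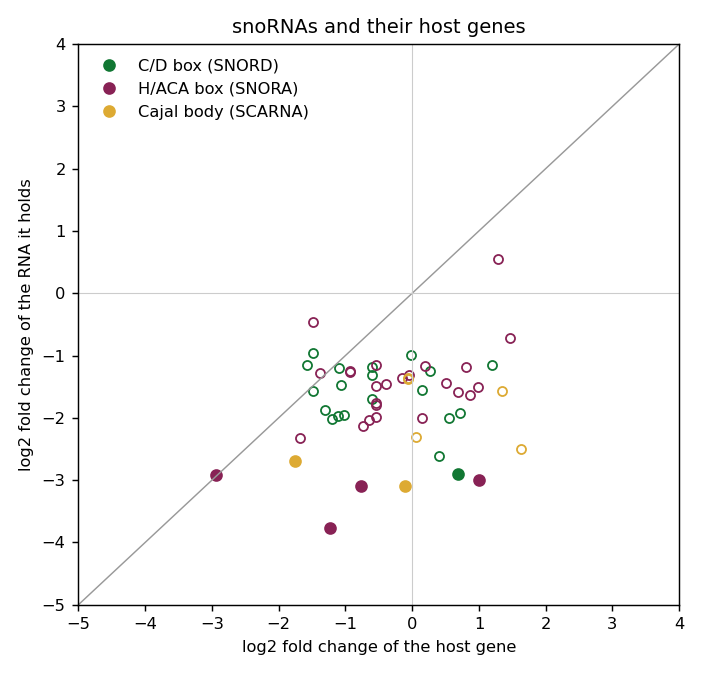
Log2 fold change (ORC1 IP over input) of each snoRNA or scaRNA on the vertical axis against that of its host gene on the horizontal axis, for 55 pairs by class (filled: RNA called lower by limma; open: not called), with the line of equal change. In 50 pairs the RNA lies below the line.

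Few genes for the proteins of these particles were called. Of 28 genes for core proteins, assembly factors, Cajal body proteins and telomerase, all were tested. Of these, 2 were called lower and 0 higher, against 1.42% and 2.28% of all tested genes. The 27 other than TERC had a median log2 fold change of -0.35. TERC, the telomerase RNA, carries an H/ACA domain and binds the same core proteins. It was at 3302, 5637 and 2627 in the inputs and 439.8, 927 and 113 in the ORC1 IPs. It fell without overlap (log2 fold change -3.34 ± 0.62, SE, limma adjusted p = 0.0174). NHP2L1, which encodes the protein that binds the C/D motif, was at means of 4379 and 1363 (limma, adjusted p = 0.0381, and 0.0682 with the block). In the other direction RPAP3, an assembly factor, had a log2 fold change of 2.13 ± 0.61 (limma, adjusted p = 0.0701, and 0.0148 with the block). NOP58, a C/D core protein, was at 1.68 ± 0.59 (limma, adjusted p = 0.121).

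The 61 RNAs under the minimum had means of 1.67 to 9.67 normalised counts and cannot carry a call. Among them 48 had a lower mean in ORC1 IPs and 13 a higher one, where 53.3% of 6177 untested genes in the same range of means had a lower one. In 13 of the 61 all ORC1 IPs lay below all inputs, against 9.13% of those 6177 genes. Summed, they were at 269, 515 and 290.2 in the inputs and 300.5, 242 and 87.2 in the ORC1 IPs, so ORC1 IP 1 lay within the range of the inputs. Just inside the minimum were SNORA66 at 12.01, SNORA55 at 11.95 and SNORD69 at 10.05, and just outside SCARNA1 at 9.67, SNORD7 at 9.63 and SNORA28 at 9.60.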

How the data were processed

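Native RNA immunoprecipitation with an anti-ORC1 antibody was sequenced for 3 inputs and 3 ORC1 IPs of untreated, asynchronous HCT116 nuclei. The study's methods state sonication of the nuclear lysates and stranded libraries of ribosome-depleted total RNA. Reads were trimmed by the authors (Trimmomatic), mapped with STAR to hg19 using Ensembl annotation, stripped of GL contigs and summarised per gene by featureCounts before DESeq2. Strand use and the handling of multimapping reads are not given in the sources used here, and 10 of the 127 RNAs lie opposite an antisense gene.

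The deposited values are a signal: for each library, the authors divided gene counts by its size factor. All values (100%) were whole multiples of 1 read within a tolerance of 0.001, so whole reads were recovered (totals 13703033 to 36008733 per library). The authors' deposited log2 fold changes, Wald score and p-value columns were not used.

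limma 3.58.1 (intensity trend, no block) was run on log2(normalised count + 1) over 16513 genes with a mean of at least 10, with an adjusted p (Benjamini-Hochberg) under 0.05 as the threshold. This scale understates changes of low genes. edgeR 4.0.16 and DESeq2 1.42.0 were run on the recovered reads. All 3 tools were tested on simulated counts, where DESeq2 made more false calls than limma and edgeR. The simulation gave every gene the same dispersion and let libraries differ only in depth, so this order of the tools need not hold for these data. Sampling intervals were not used, since the spread between libraries exceeded counting noise: chi-square per degree of freedom was 49.5 to 676 between libraries of 1 group. The labels tie each input to the ORC1 IP of the same RIP replicate. Deviations of same-numbered libraries correlated at -0.32, -0.24 and 0.22.

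Models of GENCODE v44 on GRCh38 were matched by Ensembl ID for 122 of the 127 RNAs and by symbol for 1, and 4 were not matched. The counts rest on hg19, so these lengths and positions are not those used for counting. Named RNAs were every called one, the 5 most abundant tested ones of each class, the 5 with the most positive and the 5 with the most negative fold change, and the tested ones with a part in pre-rRNA cleavage or a promoter of their own. The RNAs and lists were chosen with earlier results of these data known. Alternatives covered the pseudocount, the filter, the scaling, the test, the block, leaving out each library and, added later, length and GC content (natural splines of 5 degrees of freedom), rows of another annotated type and summed U3 rows.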

Additional observations from a re-analysis of the deposited data

How the results depend on the processing

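Direction was stable in most settings, and the count of calls was not. Of all genes, 376 were higher and 234 lower in limma, and this became 87 and 96 with scaling by total count, 143 and 96 without the intensity trend, 1266 and 718 in DESeq2, and 118 and 66 after correction for length and GC content. Leaving out 1 library gave 6 to 1965 genes higher and 23 to 1053 lower. For the snoRNAs and scaRNAs the 12 called lower became 6 with total count scaling, 6 without the trend, 23 in DESeq2 and 4 after the correction, and 1 to 33 when 1 library was left out. Total count scaling moved the median of all genes from 0.014 to -0.19. The replicate block called 16 of them lower and, apart from SCARNA10, SCARNA2 and SNORD3B-1 above, changed no call of a named RNA. The correction was chosen after seeing the data and was fitted with the snoRNAs and scaRNAs included. It moved the median log2 fold change to -0.33 for all, -0.20 for SNORA, -1.30 for SCARNA and -0.20 for other short genes. The median was reversed to 0.045 for SNORD, and the RNA minus host median to 0.054. It also reversed SNORA33 (0.71), SNORA49 (0.63), SNORD101 (0.64), SNORD104 (0.71), SNORD12B (0.28), SNORD14A (0.35) and SNORD14E (0.045). Without ORC1 IP replicate 3, SCARNA15 and SNORA33 were the named RNAs that reversed. Over the fits that left out 1 library they ranged from -1.37 to 0.15 and from -0.77 to 0.098. Other short genes had a median of -0.69 with no filter, and leaving out 1 library gave -1.54 to -1.04. The cause of these changes was not tested. Shares of reads do not depend on the scaling. Leaving out rows of another annotated type, also added later, gave 11 of 60 called lower, against 1.42% of all tested genes. With the U3 rows summed, 9 of the 62 tested RNAs outside U3 were called lower, where 231 of all 16510 tested genes were. The summed U3 feature is not counted in the 9 and was called lower as well.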

Other observations

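A further 8 tested genes are typed as snoRNA or scaRNA in GENCODE v44 but carry no SNORD, SNORA or SCARNA symbol in the table. All 8 had a negative log2 fold change in ORC1 IP, with a median of -2.39. By limma 3 were called lower and 0 higher, against 1.42% and 2.28% of all tested genes.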
